A study of Mus musculus with 16 samples.

Results

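The genes considered here are 43 mouse genes for glycolysis and for the hypoxia response, taken by symbol from a list and read in each of the 3 deposited tables, mutant against control. They comprise 25 glycolytic genes (17 enzymes, 4 transporters and 4 regulators of flux) and 18 others (2 alpha subunits of the hypoxia-inducible factors and 16 of their targets). The list holds 43 of the 26653 gene identifiers that appear in any table. All 43 were found among the 23083 genes of embryonic stem cells (ESCs), 42 among the 21615 genes of embryonic fibroblasts (MEFs) and 41 among the 18288 genes of kidney fibroblasts (MKFs). Egln3 has no row in the MEF table, and Slc2a3 and Adm have none in the MKF table, which leaves 40 genes in all 3. Every one of these rows entered the test.

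RNA sequencing of total RNA gave 16 libraries in 8 groups of 2. In ESCs the groups are an Actb knockout (KO), a deletion of the entire Actb locus (LD) and wild type (WT). In MEFs they are an Actg1 KO, a deletion of the Actg1 locus (LD) and WT. In MKFs they are a Kindlin-2 KO and cells with the floxed gene, that is, with recombination sites around the part to be removed. Actb and Actg1 encode the cytoplasmic actins, and Kindlin-2, from the gene Fermt2, is an adaptor that helps to activate integrins. The series asks how cells with a mutant gene change the expression of other genes. The labels do not say how the mutations were made, whether a line is 1 clone, or whether the libraries of a group came from separate cultures, so the p-values measure the spread between libraries, which may be technical.

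Glycolysis breaks glucose down to pyruvate in the cytosol. Glucose enters through transporters, is trapped by hexokinases, passes the control step of phosphofructokinase, and ends as pyruvate, which lactate dehydrogenase can turn into lactate for export. Hypoxia-inducible factor (HIF) pairs an alpha subunit, made from Hif1a or Epas1, with a constant partner and binds short DNA motifs near its target genes. With oxygen present, prolyl hydroxylases such as Egln1 and Egln3 mark the alpha subunits for destruction, so HIF activity is set largely on the protein, which was not measured here. HIF targets include most glycolytic enzymes, the angiogenic factor Vegfa, the mitophagy receptors Bnip3 and Bnip3l, and Egln1 and Egln3 themselves. Mouse ESCs and fibroblasts in culture use glycolysis heavily, and the same enzyme step is often served by several isozyme genes.

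The targeted genes followed their labels in direction. Actb was 23650 and 22707 in ESC Actb KO libraries and 2372 and 2336 in Actb LD libraries, against 36364 and 34140 in WT libraries. Actg1 was 1004 and 1026 in MEF Actg1 KO libraries and 25 and 15 in Actg1 LD libraries, against 5737 and 5672 in WT libraries. Fermt2 was 1251 and 1240 in MKF KO libraries, against 3078 and 3142 in floxed libraries. All levels are normalised read counts, in the order of library 1 and library 2, and the values of a library summed to 16022043 to 16529089 in ESCs, 20305511 to 22094490 in MEFs and 15565648 to 16324223 in MKFs. All 8 of 8 stem cell markers were measured in ESCs, at 2847 or more in every library. All 9 of 9 fibroblast markers were measured in MEFs, but Dcn was 5 to 17 and Thy1 3 to 11 in WT and LD libraries. In ESCs 6 of the 9 fibroblast markers were measured too. The libraries labelled kidney fibroblasts carry several markers of kidney epithelium, while most fibroblast markers are absent or low. Of the 9 fibroblast markers, Col3a1, Thy1 and Dcn have no row there. Col1a1 was at 8 to 64, Col1a2 at 1 to 15, Pdgfra at 1 to 11 and Pdgfrb at 0 to 11. Fbln1 was at 350 to 471 and Vim, which many cell types express, at 26693 to 33173. Of the 9 markers of kidney epithelium 7 were measured, with Pax8 at 2044 to 2238, while Epcam was 26 and 11 and Cdh1 10 and 16 in floxed libraries. They are called MKF libraries below, by their label.

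To show where HIF could bind, the bases upstream of the start were searched for the core of its motif, ACGTG or GCGTG, on both strands, in the RefSeq promoter table of build GRCm38.p6. Of the 43 genes, 37 had 1 or more promoters in that table. Slc2a3, Bhlhe40, Ndrg1, Epas1, Bnip3l and Ero1l had no entry. Within 250 bases of the start, 43 of the 55 promoters of the listed genes held either core (78.2%), against 12679 of 32851 promoters in the whole table (38.6%). The ACGTG core alone was found in 25 of 55 (45.5%), against 16.6% of the whole table, and its palindromic form CACGTG, which overlaps ACGTG and is also the E-box bound by other factors, in 6 of 55 (10.9%), against 6.02%. A match is a run of letters and says nothing of binding in these cells.

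The 4 promoters below belong to genes that passed the test in most mutant and control pairs and hold a core. Each is the promoter of its gene with the most cores, with a tie in Eno1. Another Hk1 promoter held 0 cores, and another Eno1 promoter held 1. Hk1 and Pfkp encode enzymes of the early, energy-spending part of the pathway, Eno1 an enzyme of the later part, and Bnip3 a mitophagy receptor that is a classical HIF target. Each line gives the 250 bases before the start, 5′ to 3′ along the gene, in lower case, with every core on either strand in capitals.
Hk1, chr10:62340422-62340671 (- strand): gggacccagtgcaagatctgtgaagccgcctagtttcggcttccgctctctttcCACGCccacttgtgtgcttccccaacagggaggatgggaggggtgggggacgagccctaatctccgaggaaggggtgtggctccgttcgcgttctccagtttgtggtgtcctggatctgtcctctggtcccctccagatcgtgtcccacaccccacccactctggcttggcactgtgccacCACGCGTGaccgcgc
Pfkp, chr13:6648772-6649021 (- strand): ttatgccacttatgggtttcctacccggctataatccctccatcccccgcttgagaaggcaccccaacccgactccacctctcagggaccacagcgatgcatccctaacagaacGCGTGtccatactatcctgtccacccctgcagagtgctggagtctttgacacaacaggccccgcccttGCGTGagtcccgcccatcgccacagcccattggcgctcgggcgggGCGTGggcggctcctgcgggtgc
Bnip3, chr7:138909507-138909756 (- strand): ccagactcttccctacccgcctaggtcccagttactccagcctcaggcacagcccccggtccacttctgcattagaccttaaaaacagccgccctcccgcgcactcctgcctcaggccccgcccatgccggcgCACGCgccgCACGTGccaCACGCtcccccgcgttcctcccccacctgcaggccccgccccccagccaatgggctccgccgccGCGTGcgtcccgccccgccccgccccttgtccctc
Eno1, chr4:150236947-150237196 (+ strand): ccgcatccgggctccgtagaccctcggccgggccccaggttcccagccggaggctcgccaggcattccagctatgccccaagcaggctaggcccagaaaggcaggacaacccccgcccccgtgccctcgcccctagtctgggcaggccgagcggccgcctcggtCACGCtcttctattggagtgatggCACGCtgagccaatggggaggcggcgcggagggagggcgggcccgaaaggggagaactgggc

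In Bnip3 the cores lie between 117 and 31 bases before the start, and the pair of ACGTG cores in it forms a CACGTG palindrome that spans bases -108 to -103. Hk1 has an overlapping pair of GCGTG cores right before the start, at bases -15 to -8, and a distant one at bases -196 to -192. The Pfkp promoter holds 3 GCGTG cores, all on the strand of the gene, and the Eno1 promoter 2, both on the other strand. Capitals such as CACGC are the core read from the opposite strand.

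Across the 5 mutant and control pairs, no single direction held for the list. A gene is said to rise, fall or change only at an adjusted p below 0.05 (limma on log2(value + 1), adjusted over all genes of the table). By that rule 19 of the 43 genes fell in at least 1 pair and rose in none, 4 rose in at least 1 and fell in none, and 20 did both. Of the 26614 genes tested in at least 1 table, among them genes tested in fewer pairs than the list, 18.4%, 18.6% and 18.0% did so. The transcriptional repressor Bhlhe40 was the 1 gene of the list that fell in all 5, as 0.0488% of all genes did. Bnip3, Eno1 and Vegfa fell in 4 and rose in none, and Hk1 fell in 4 and rose in the MKF KO. Ndrg1, a gene induced by stress and low oxygen, fell in ESCs and MKFs and rose in both MEF mutants. Pairs within a cell type share their WT libraries, so they are not independent of each other. The heat map of fold changes sets the 5 pairs side by side.

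**Figure D1:**
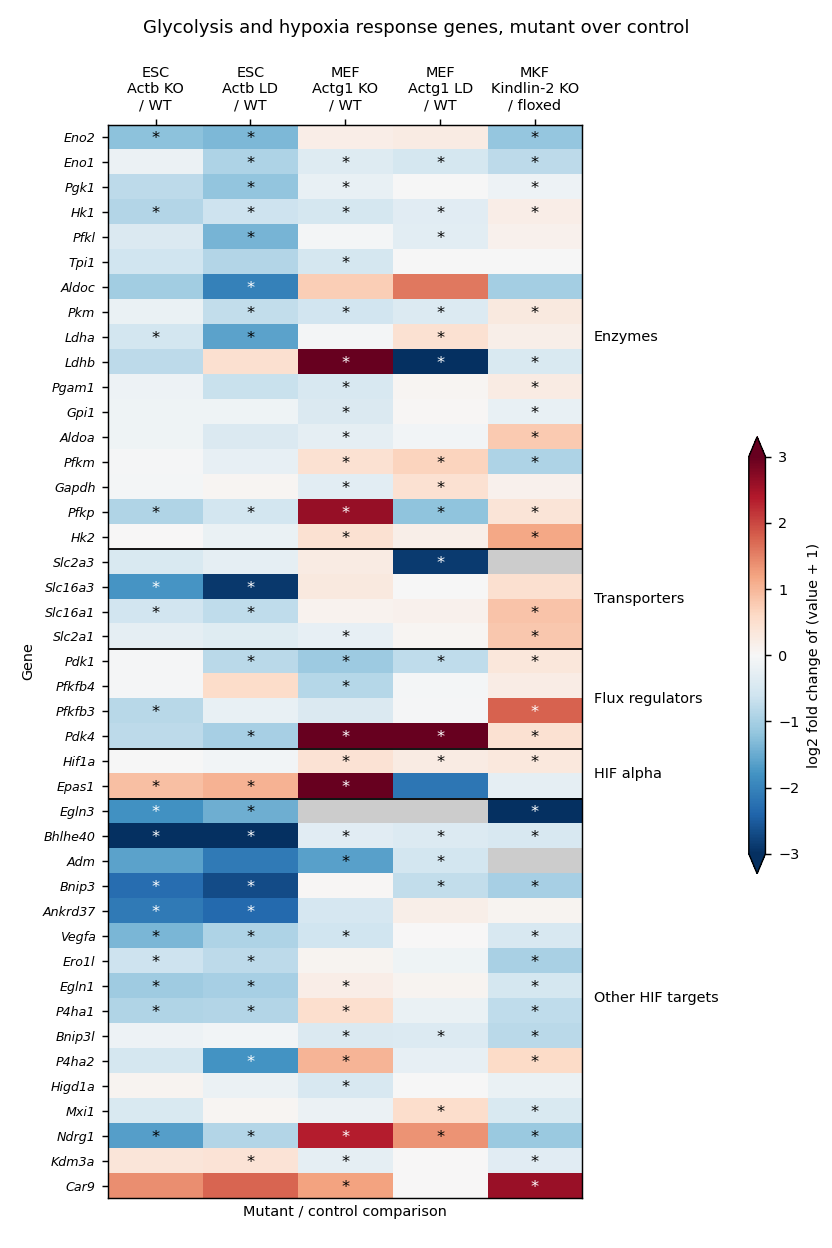
Log2 fold change of (value + 1), mutant over control, for the 43 genes (rows, grouped by role) in the 5 mutant and control pairs (columns), with colours capped at -3 and 3. An asterisk marks an adjusted p below 0.05 and grey marks a gene with no row in that table. The ESC columns are mostly blue, the MEF columns mixed, and in the MKF column Slc2a1 and Slc16a1 are red while most other HIF targets are blue.

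ESC Actb KO libraries had less RNA of many genes on the list than WT libraries. Where a bulk level differs, fewer cells with the RNA and less RNA in each cell cannot be told apart. Of the 43 genes 16 fell and 1 rose, where 2.44% of all 23054 genes tested fell and 2.44% rose. The median log2 fold change was -0.549 over the list and 0 over all genes. Among the 25 glycolytic genes 7 fell and none rose (13 fell with a replicate block), with a median of -0.459. Of the 18 others 9 fell and 1 rose, with a median of -0.763. All 16 that fell were lower in both KO libraries than in both WT libraries. These calls need all the libraries: with any 1 of the 4 left out, at most 1 of the 43 passed, and with only the KO and WT groups in the fit 9 did. In the ESC table same-numbered libraries deviated together, and with a replicate block 8 further genes passed: Aldoc, Ldhb, Pfkl, Pgk1, Slc2a3, Tpi1 and Mxi1, all lower, and Kdm3a, higher (limma adjusted p from 0.0049 to 0.0484). Genes listed as markers of other cell types differed between the same libraries, which does not show that such cells were present. The 3 measured of 7 blood markers, nearly all of it Laptm5, summed to 2038 and 1942 in KO libraries and 1390 and 1276 in LD libraries, against 1103 and 970 in WT libraries. The 4 measured of 5 endothelial markers, nearly all of it Pecam1, summed to 1353 and 1433 in KO libraries and 1089 and 1151 in LD libraries, against 2000 and 1938 in WT libraries, with Cdh5 at 5 or less throughout. Of the epithelial markers, Lrp2 was 6433 and 6126 in KO libraries and 2060 and 1815 in LD libraries, against 1361 and 1421 in WT libraries. Cdh1 went the other way, at 8280 and 8370 in KO libraries and 7104 and 6929 in LD libraries, against 12186 and 11800 in WT libraries. The 5 measured of 9 epithelial markers summed to 15373 and 15118 in KO libraries. Their sums were 9737 and 9337 in LD libraries, against 14038 and 13655 in WT libraries. Their part in the results was not tested.

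Slc16a3 and Eno2 had the largest fold changes among the glycolytic genes in the Actb KO. Slc16a3, the monocarboxylate transporter best known for exporting lactate, was 88 and 96 in KO libraries, against 325 and 310 in WT libraries (log2 fold change -1.78 ± 0.17 SE, adjusted p = 0.0014). Slc16a1, the more widely expressed transporter of the same family, fell less, to 1636 and 1936 in KO libraries, against 2490 and 2847 in WT libraries (-0.58 ± 0.13, limma adjusted p = 0.039). Both lay below every WT library. The neuronal enolase gene Eno2 was 22 and 32 in KO libraries, against 63 and 65 in WT libraries (-1.24, limma adjusted p = 0.0416). Pfkp, 1 of 3 phosphofructokinase genes, was 2411 and 2009 in KO libraries, against 4485 and 3808 in WT libraries (-0.91, limma adjusted p = 0.00679). Hk1, the housekeeping hexokinase, was 884 and 734 in KO libraries, against 1642 and 1352 in WT libraries (-0.89, limma adjusted p = 0.011), so Pfkp and Hk1 stood at 53.3% and 54.0% of their WT means. Pfkfb3, which makes the allosteric activator of phosphofructokinase, was 225 and 193 in KO libraries, against 364 and 379 in WT libraries (-0.83, limma adjusted p = 0.0221). Ldha, which turns pyruvate into lactate, was 5288 and 4773 in KO libraries, against 7934 and 6815 in WT libraries (-0.55, limma adjusted p = 0.0449), or 68.2% of WT. Several of the most abundant enzyme genes did not pass, with or without a replicate block. Pkm, pyruvate kinase, was 18165 and 14660 in KO libraries, against 21330 and 16520 in WT libraries, and the groups overlapped. Gapdh was 7102 and 5154 in KO libraries, against 7962 and 4999 in WT libraries, a spread within each group far larger than the difference of the means. For Aldoa the groups overlapped as well (10556 and 9280 in KO libraries, against 12913 and 8967 in WT libraries). In all 3 ESC groups library 1 was above library 2 for 14 of the 43 genes, among them Gapdh, Pkm, Aldoa, Tpi1, Pgam1 and Ldhb. It was below library 2 in all 3 groups for 9, among them Kdm3a, Hif1a, Slc16a1 and Epas1. The number of a library thus moved with these genes in every genotype. The share of all genes ordered in this way was not determined.

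Of the other HIF targets, Bhlhe40 showed the largest fold change in the Actb KO, at 23 and 34 in KO libraries, against 381 and 390 in WT libraries (-3.74 ± 0.24, adjusted p = 0.000236). Bnip3 was 65 and 68 in KO libraries, against 314 and 348 in WT libraries (-2.30 ± 0.20, adjusted p = 0.000875), or 20.1% of WT. Its paralog Bnip3l did not pass (1062 and 1093 in KO libraries, against 1098 and 1324 in WT libraries). Ndrg1 was 88 and 100 in KO libraries, against 278 and 314 in WT libraries, and Vegfa was 450 and 424 in KO libraries, against 1254 and 1008 in WT libraries. They stood at 31.8% and 38.6% of WT (limma adjusted p = 0.00182 and 0.00434). The oxygen-sensing hydroxylase gene Egln3 was 35 and 39 in KO libraries, against 153 and 115 in WT libraries (-1.82, limma adjusted p = 0.00625). Egln1 was 282 and 275 in KO libraries, against 652 and 527 in WT libraries (-1.07, limma adjusted p = 0.00909). Ankrd37, an ankyrin repeat gene, was 13 and 11 in KO libraries, against 58 and 53 in WT libraries (-2.12, limma adjusted p = 0.014). Egln1 and Ankrd37 lie on chromosome 8, whose genes had a median log2 fold change of -0.346 in the KO and -0.402 in the LD, while the medians of the other chromosomes ran from -0.001 to 0.0834 and from -0.0484 to 0.104. The part of that shift in the 2 genes was not tested. P4ha1, a catalytic subunit of the collagen prolyl hydroxylase, was 370 and 382 in KO libraries, against 743 and 663 in WT libraries (limma adjusted p = 0.00733). Ero1l, an oxidase for disulfide bonds in the endoplasmic reticulum, was 629 and 621 in KO libraries, against 878 and 1063 in WT libraries (limma adjusted p = 0.0299). Both thus stood clear of WT. Higd1a, P4ha2, Car9, Adm and Bnip3l did not pass, nor did Kdm3a and Mxi1 without a replicate block, and Car9 and Adm, the peptide adrenomedullin, were at 16 or less in every ESC library.

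In the ESC Actb LD, more of the same list fell. Of 43 genes 23 fell and 2 rose, where 6.00% of all genes fell and 5.19% rose. Medians were -0.762 over the list, -0.678 over the 25 glycolytic genes and -0.876 over the 18 others, against 0.006 over all genes. Among the glycolytic genes 13 fell and none rose, and among the others 10 fell and 2 rose. With 1 library left out, 1 to 7 of the 43 passed, and Slc16a3 passed whichever library was left out. With only the LD and WT groups in the fit 14 passed, and with a replicate block 30 did. Set beside the KO, 15 genes fell in both Actb mutants and 1 rose in both, but these mutants were set against the same WT libraries. The share of all genes that fell or rose in both was not determined.

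Genes of both the later and the earlier steps of glycolysis were among the 13 that fell in the Actb LD. Ldha was 2613 and 2204 in LD libraries, against 7934 and 6815 in WT libraries (-1.62 ± 0.12, adjusted p = 0.000327), or 32.7% of WT. Slc16a3, which carries lactate out, was 44 and 40 in LD libraries, against 325 and 310 in WT libraries (-2.89 ± 0.17, adjusted p = 8.14e-05), or 13.2%. Both genes of lactate production and export thus stood below the Actb KO libraries as well. Eno1, the main enolase gene, was 3399 and 2711 in LD libraries, against 5727 and 5861 in WT libraries (-0.93, limma adjusted p = 0.00287). Pgk1, phosphoglycerate kinase, was 820 and 572 in LD libraries, against 1710 and 1405 in WT libraries (-1.18, limma adjusted p = 0.0158). Pkm was 12345 and 10401 in LD libraries, against 21330 and 16520 in WT libraries (-0.73, limma adjusted p = 0.0234), and no LD library of these 3 genes reached a WT library. Among the earlier steps, Pfkl, the liver-type phosphofructokinase, was 638 and 592 in LD libraries, against 1759 and 1501 in WT libraries (-1.40, limma adjusted p = 0.000426), and Aldoc, a minor aldolase gene, was 44 and 25 in LD libraries, against 158 and 122 in WT libraries (-2.03, limma adjusted p = 0.00438). Eno2 was 23 and 26 in LD libraries, against 63 and 65 in WT libraries, and Hk1 and Pfkp stood at 64.4% and 68.0% of WT. All 5 of these genes lay below WT in both LD libraries. Slc16a1 was 1480 and 1664 in LD libraries, against 2490 and 2847 in WT libraries (-0.76, limma adjusted p = 0.0076). Of the pyruvate dehydrogenase kinases, which close the gate from pyruvate to the citric acid cycle, Pdk1 was 180 and 202 in LD libraries, against 308 and 359 in WT libraries (limma adjusted p = 0.0159). Pdk4 was 39 and 57 in LD libraries, against 96 and 94 in WT libraries (limma adjusted p = 0.038). The glucose transporters Slc2a1 and Slc2a3, Hk2, Gpi1, Pfkm, Aldoa, Tpi1, Gapdh, Pgam1, Ldhb, Pfkfb3 and Pfkfb4 did not pass. With a replicate block 5 of these did: Slc2a1, Aldoa, Pgam1 and Tpi1 were lower and Ldhb was higher (limma adjusted p from 0.00219 to 0.0308). Slc2a1 was 2176 and 1931 in LD libraries, against 2738 and 2527 in WT libraries (-0.36, limma adjusted p = 0.0619).

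The other targets in the Actb LD were led by Bhlhe40, at 27 and 22 in LD libraries, against 381 and 390 in WT libraries (-3.93 ± 0.24, adjusted p = 0.00012). Bnip3 was 44 and 59 in LD libraries, against 314 and 348 in WT libraries (-2.67 ± 0.20, adjusted p = 0.000249). Ankrd37 was 8 and 13 in LD libraries, against 58 and 53 in WT libraries, on chromosome 8 as above. P4ha2, a further subunit gene of the collagen prolyl hydroxylase, was 10 and 14 in LD libraries, against 38 and 49 in WT libraries (-1.78, limma adjusted p = 0.0104). These 4 genes stood at 6.36% to 27.6% of WT. Egln3 was 55 and 41 in LD libraries, against 153 and 115 in WT libraries, and Egln1 was 326 and 265 in LD libraries, against 652 and 527 in WT libraries. Vegfa was 519 and 684 in LD libraries, against 1254 and 1008 in WT libraries. P4ha1 was 359 and 404 in LD libraries, against 743 and 663 in WT libraries. These genes stood at 35.8% to 54.3% of WT. Ndrg1 was 174 and 149 in LD libraries, against 278 and 314 in WT libraries, and Ero1l was at 57.6% of WT. Epas1 rose to 1394 and 1601 in LD libraries, against 628 and 827 in WT libraries, and the histone demethylase gene Kdm3a to 6144 and 6288 in LD libraries, against 4494 and 4910 in WT libraries (0.40 ± 0.10, adjusted p = 0.0373). Kdm3a did not pass when the values were rescaled without genes that take over 1% of a library.

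The 2 Actb mutants were also compared directly, and 5 of the 6 genes that differed were glycolytic. Of 43 genes 5 were higher and 1 lower in KO than in LD libraries, where 2.56% of all genes were higher and 2.32% lower. A replicate block gave 9 higher and 4 lower, adding Aldoc, Pgam1, Pkm and P4ha2 to the higher and Ldhb, Pfkfb3 and Mxi1 to the lower side (limma adjusted p from 0.000846 to 0.0341), rescaled values gave 5 and 3, and none passed with any 1 library left out. Ldha was 5288 and 4773 in KO libraries, against 2613 and 2204 in LD libraries (1.07 ± 0.12, adjusted p = 0.00397). Pfkl was 1213 and 1178 in KO libraries, against 638 and 592 in LD libraries (0.96, limma adjusted p = 0.00439), and Eno1 was 5197 and 5007 in KO libraries, against 3399 and 2711 in LD libraries (0.75, limma adjusted p = 0.0122). Slc16a3 was 88 and 96 in KO libraries, against 44 and 40 in LD libraries (limma adjusted p = 0.00933). These 4 genes were 1.67 to 2.19 times as high in the KO. Pdk1 was 291 and 358 in KO libraries, against 180 and 202 in LD libraries (limma adjusted p = 0.0332). Ndrg1 was the 1 gene lower in the KO, at 88 and 100 in KO libraries, against 174 and 149 in LD libraries (-0.77, limma adjusted p = 0.0342). Bhlhe40 and Bnip3, both far below WT in each mutant, did not pass between them (log2 fold change 0.19 ± 0.24 and 0.38 ± 0.20).

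**Figure D2:**
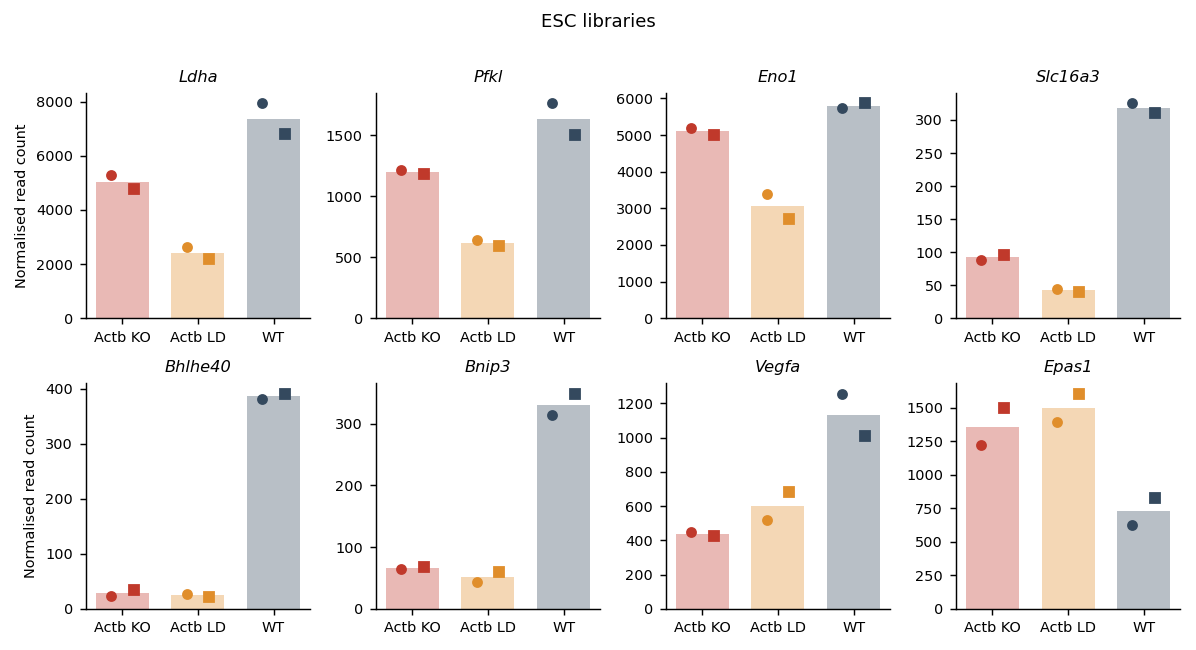
Normalised read counts of 8 genes in ESC libraries of the Actb KO, the Actb LD and WT. Circles are library 1, squares library 2 and bars the mean of both; each axis starts at 0. Ldha, Pfkl and Slc16a3 are lower in KO than in WT libraries and lowest in LD libraries, Bhlhe40 and Bnip3 are low in both mutants, and Epas1 is higher in both mutants than in WT.

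In MEFs the Actg1 KO split the list. Of 42 genes 18 fell and 12 rose, where 19.1% of all 21589 genes tested fell and 20.6% rose. The median log2 fold change was -0.118 over the list and 0.06 over all genes. The 25 glycolytic genes leaned to lower values (12 fell, 5 rose, median -0.225), while of the 17 others 7 rose and 6 fell (median 0.03). With 1 library left out 17 to 21 of the 42 passed, and 15 of the 30 passed whichever library was left out. The fibroblast markers differed between the same libraries, and not in 1 direction. The 9 markers summed to 182472 and 191985 in KO libraries and 122908 and 135033 in LD libraries, against 165093 and 165406 in WT libraries. In the KO the collagen genes Col1a1, Col1a2 and Col3a1 and the proteoglycan gene Dcn rose, and Vim and Pdgfrb fell. Col1a1 was 84930 and 91165 in KO libraries, against 15137 and 13197 in WT libraries, and Vim was 41304 and 43759 in KO libraries, against 126213 and 129947 in WT libraries. The stem cell marker Sox2 was 1326 and 1306 in KO libraries, against 44 and 32 in WT libraries. Klf4, of the same list, went the other way, at 806 and 806 in KO libraries, against 1873 and 1790 in WT libraries. Nanog was at 18 or less in every MEF library. The 3 measured of 8 stem cell markers summed to 2150 and 2127 in KO libraries, against 1921 and 1824 in WT libraries. The part of these differences in the results was not tested. Whole chromosomes were shifted too. Genes of the list that passed are given where the median log2 fold change of their chromosome was past 0.3 either way. Pdk1 lies on chromosome 2 (-0.528), Pkm, Pfkfb4 and Higd1a on chromosome 9 (-0.317) and Pgam1 on chromosome 19 (-0.330), all with the sign of their chromosome. Hif1a, on chromosome 12 (-0.326), went against it. Chromosome 17 was just short of that limit at -0.287, with Vegfa, which fell, and Epas1, which rose.

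Most of the core enzymes fell modestly in the Actg1 KO, and a few isozyme and regulator genes rose many fold. Pkm was 21117 and 21734 in KO libraries, against 32425 and 31510 in WT libraries (-0.58, limma adjusted p = 0.00382). Tpi1 was 2915 and 2693 in KO libraries, against 3915 and 4112 in WT libraries (-0.52, limma adjusted p = 0.000409), and Pgam1, phosphoglycerate mutase, was 2285 and 2394 in KO libraries, against 3436 and 3085 in WT libraries (-0.48, limma adjusted p = 0.000981). Gpi1, Eno1, Gapdh, Aldoa, Slc2a1 and Pgk1 fell as well, to between 74.0% and 85.6% of WT; Slc2a1 and Pgk1 did not pass with rescaled values (limma adjusted p = 0.0655 and 0.108). Hk1 was 1919 and 1964 in KO libraries, against 2837 and 2790 in WT libraries (-0.54, limma adjusted p = 0.000227). Hk2, the inducible hexokinase, went the other way, at 1542 and 1654 in KO libraries, against 1214 and 1121 in WT libraries (0.45, limma adjusted p = 0.00147). Likewise Pfkm and Pfkp rose while Pfkl did not pass. Pfkp was 834 and 883 in KO libraries, against 136 and 142 in WT libraries (2.62 ± 0.11, adjusted p = 3.59e-06), a rise of 6.18-fold. Ldhb, the lactate dehydrogenase subunit that favours making pyruvate, was 195 and 222 in KO libraries, against 17 and 19 in WT libraries (3.46 ± 0.32, adjusted p = 0.000125). Pdk4, a kinase that shuts off pyruvate dehydrogenase, was 327 and 359 in KO libraries, against 36 and 15 in WT libraries (3.82 ± 0.34, adjusted p = 9.33e-05). Its relative Pdk1 fell, to 351 and 317 in KO libraries, against 725 and 690 in WT libraries (-1.08 ± 0.08, adjusted p = 5.42e-05). Pfkfb4, which like Pfkfb3 sets the activator of phosphofructokinase, was 60 and 64 in KO libraries, against 116 and 111 in WT libraries (-0.86, limma adjusted p = 0.00276). Slc2a3, Slc16a1, Slc16a3, Pfkl, Aldoc, Eno2 and Pfkfb3 did not pass. Ldha did not pass either, at 6829 and 7397 in KO libraries, against 7484 and 7433 in WT libraries.

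Among the other targets in the Actg1 KO, Ndrg1 rose 5.12-fold, to 1578 and 1630 in KO libraries, against 321 and 305 in WT libraries (2.35 ± 0.07, adjusted p = 9.9e-07). The collagen prolyl hydroxylase genes rose together. P4ha2 was 873 and 919 in KO libraries, against 461 and 422 in WT libraries (1.02 ± 0.08, adjusted p = 6.64e-05), and P4ha1 was 4278 and 4400 in KO libraries, against 2994 and 3160 in WT libraries (0.50, limma adjusted p = 0.000811). Car9, a carbonic anhydrase of the cell surface, was 78 and 78 in KO libraries, against 25 and 44 in WT libraries (1.21, limma adjusted p = 0.0293), and Egln1 was at 115.5% of WT, a call lost with a replicate block (limma adjusted p = 0.0551). In the other direction, Adm was 111 and 95 in KO libraries, against 304 and 334 in WT libraries (-1.62 ± 0.12, adjusted p = 4.6e-05). Vegfa was 2310 and 2250 in KO libraries, against 3651 and 3314 in WT libraries (-0.61, limma adjusted p = 0.000255). Both were clear of WT. Bnip3l was 1543 and 1564 in KO libraries, against 2076 and 2136 in WT libraries (limma adjusted p = 0.000588), and the mitochondrial protein gene Higd1a was 192 and 194 in KO libraries, against 253 and 283 in WT libraries (limma adjusted p = 0.0153). Bhlhe40 and Kdm3a were at 79.0% and 82.5% of WT. Ero1l, Mxi1 and Ankrd37 did not pass, nor did Bnip3 (187 and 163 in KO libraries, against 153 and 191 in WT libraries).

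Fewer genes changed in the Actg1 LD. Of 42 genes 12 fell and 7 rose, where 12.6% of all genes fell and 9.46% rose, and the median was -0.015 over the list and 0 over all genes. With 1 library left out 8 to 16 of the 42 passed; without WT library 1 it was 8. Of the 25 glycolytic genes 8 fell and 4 rose, and of the 17 others 4 fell and 3 rose. In both Actg1 mutants 7 genes fell and 4 rose (Pdk4, Ndrg1, Pfkm and Hif1a), with the WT libraries in common. What share of all genes changed alike in both was not determined. Pdk4 was 401 and 454 in LD libraries, against 36 and 15 in WT libraries (4.14 ± 0.34, adjusted p = 0.000198), and Ndrg1 was 784 and 816 in LD libraries, against 321 and 305 in WT libraries (1.35 ± 0.07, adjusted p = 2.83e-05). Pdk1 was 413 and 419 in LD libraries, against 725 and 690 in WT libraries (-0.76, limma adjusted p = 0.000774). For Pdk1 and Pdk4 both mutants thus lay on the same side of WT, with no overlap.

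Ldhb, Pfkp, Ldha and Gapdh moved in the Actg1 LD in a direction in which they did not move in the Actg1 KO. Ldhb was listed at 0 in both LD libraries, against 17 and 19 in WT libraries, which is at least 6.0-fold lower with 3 counts per library in place of 0 (limma adjusted p = 0.000153 on the log2 scale). Pfkp was 61 and 59 in LD libraries, against 136 and 142 in WT libraries (-1.20 ± 0.11, adjusted p = 0.000285). Slc2a3, a high-affinity glucose transporter, was 1 and 4 in LD libraries, against 18 and 27 in WT libraries, low values throughout MEFs. Pfkp overlaps the 3′ end of Pitrm1 on the opposite strand, and whether reads were counted by strand is not given in the sources used here; Pitrm1 was 4159 to 5946 in the MEF libraries. Ldha was 10148 and 10448 in LD libraries, against 7484 and 7433 in WT libraries (0.47 ± 0.06, adjusted p = 0.0014). Gapdh was 6891 and 7321 in LD libraries, against 5128 and 5244 in WT libraries (0.45 ± 0.06, adjusted p = 0.00206), though 77 annotated genes or pseudogenes are near-identical to Gapdh, and the 55 of them in this table summed to 6.27% to 8.62% of its value. Pfkm was 1036 and 1095 in LD libraries, against 649 and 685 in WT libraries (0.67, limma adjusted p = 0.000513). Pkm was 21435 and 27421 in LD libraries, against 32425 and 31510 in WT libraries (-0.40, limma adjusted p = 0.034), with the LD libraries far apart. Eno1 was 2963 and 2575 in LD libraries, against 3993 and 4030 in WT libraries (-0.54, limma adjusted p = 0.00202), and the genes of its chromosome 4 had a median of -0.492. Hk1 and Pfkl stood at 79.2% and 80.5% of WT. The other glycolytic genes did not pass. Of the other targets, Mxi1, an antagonist of MYC, rose to 905 and 1000 in LD libraries, against 600 and 718 in WT libraries (0.53, limma adjusted p = 0.00943). Bnip3 was 90 and 114 in LD libraries, against 153 and 191 in WT libraries (-0.75, limma adjusted p = 0.0192), and Adm was 215 and 222 in LD libraries, against 304 and 334 in WT libraries. Bnip3l was 1575 and 1597 in LD libraries, against 2076 and 2136 in WT libraries. Bhlhe40 was 809 and 807 in LD libraries, against 1087 and 1054 in WT libraries. In each of these 4 the LD libraries lay below both WT libraries, and the other 10 of the 17 did not pass. With only the LD and WT groups in the fit, Pkm, Pfkl, Bnip3 and Hif1a did not pass (limma adjusted p from 0.0678 to 0.121).

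Set against each other, the Actg1 mutants differed in 30 of 42 genes, 18 lower and 12 higher in KO than in LD libraries, where 20.7% of all genes were lower and 24.5% higher. With rescaled values 12 were lower and 15 higher. Glycolytic enzymes made up much of the lower side: Gapdh was at 58.8%, Ldha at 69.1%, Pgam1 at 69.1%, Tpi1 at 70.6% and Gpi1 at 72.3% of the LD mean (limma adjusted p from 4.95e-05 to 0.000696), with no overlap between libraries. Pfkp, in contrast, was 834 and 883 in KO libraries, against 61 and 59 in LD libraries (3.82 ± 0.11, adjusted p = 5.04e-07). Ldhb was 195 and 222 in KO libraries, against 0 in both LD libraries, at least 69.5-fold higher. Slc2a3 was 23 and 30 in KO libraries, against 1 and 4 in LD libraries. Pfkfb4 was 60 and 64 in KO libraries, against 104 and 114 in LD libraries, and Pdk1 was 351 and 317 in KO libraries, against 413 and 419 in LD libraries. P4ha2 and P4ha1 were 2.42 and 1.62 times as high in KO as in LD libraries (limma adjusted p = 1.62e-05 and 0.000107), and Ndrg1 2.0 times as high. Car9 was 78 and 78 in KO libraries, against 45 and 25 in LD libraries, and Bnip3 was 187 and 163 in KO libraries, against 90 and 114 in LD libraries. Mxi1 was 609 and 561 in KO libraries, against 905 and 1000 in LD libraries, and Ankrd37 was 37 and 47 in KO libraries, against 70 and 64 in LD libraries. In all 4 the libraries of the mutants did not overlap, though Ankrd37 did not pass with rescaled values or with only these 2 groups in the fit (limma adjusted p up to 0.0672). Rescaling also ended the calls of Hk1, Pfkm, Aldoa, Pgk1 and Pdk1 (limma adjusted p up to 0.195). The limit of 0.3 on the median of a chromosome was kept here. Pdk1 lies on chromosome 2 (median of its genes -0.633), Pgam1 and Mxi1 on chromosome 19 (-0.410) and Car9 on chromosome 4 (0.592), each with the sign of its chromosome. Slc2a1, also on chromosome 4, passed with a log2 fold change of -0.293, against the sign of its chromosome. Vegfa was 2310 and 2250 in KO libraries, against 3427 and 3598 in LD libraries (-0.62, limma adjusted p = 0.000171), and Adm was 111 and 95 in KO libraries, against 215 and 222 in LD libraries (-1.08, limma adjusted p = 0.000249).

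**Figure D3:**
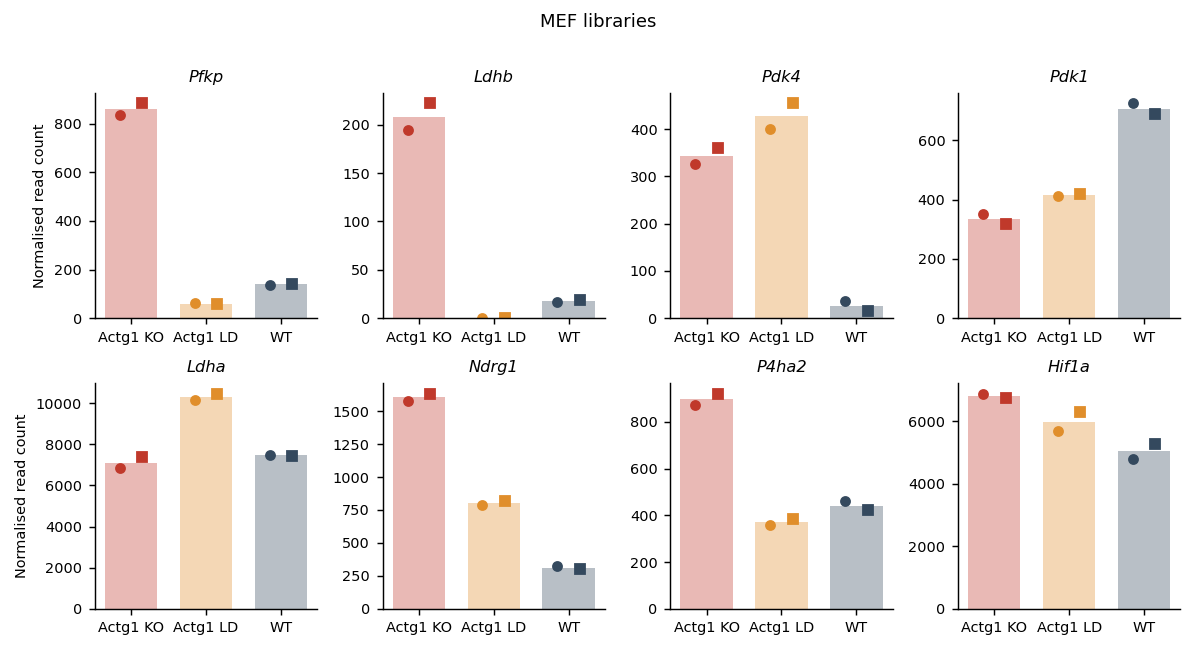
Normalised read counts of 8 genes in MEF libraries of the Actg1 KO, the Actg1 LD and WT. Circles are library 1, squares library 2 and bars the mean of both; each axis starts at 0. Pfkp and Ldhb are high in KO libraries alone, Pdk4 is high and Pdk1 low in both mutants, Ldha is highest in LD libraries, and Ndrg1 is ordered KO, LD, WT.

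In MKFs more of the glycolytic genes rose than fell in the Kindlin-2 KO, and more of the others fell than rose. Of 41 genes 14 rose and 17 fell, where 24.3% of all 18288 genes tested rose and 24.9% fell. Among the 24 glycolytic genes 11 rose and 6 fell (median 0.217), and among the 17 others 3 rose and 11 fell (median -0.475), with 0.014 over all genes. The glycolytic lean lay outside the 17 enzymes, of which 6 rose and 6 fell. Of the 3 transporters 2 rose, of the 4 flux regulators 3 rose, and none of either fell. With 1 library left out 10 to 16 of the 41 passed (10 without either floxed library), and 7 of the 31 passed whichever was left out. The 7 measured markers of kidney epithelium summed to 11676 and 11659 in KO libraries, against 7665 and 7602 in floxed libraries. Among them Epcam, Cdh1, Cdh16 and Pax2 rose, Lrp2 fell, and Pax8 and Slc12a1 did not pass. Epcam was 3430 and 3401 in KO libraries, against 26 and 11 in floxed libraries, and Lrp2 was 734 and 769 in KO libraries, against 3500 and 3310 in floxed libraries. The 6 measured fibroblast markers, nearly all of it Vim, summed to 27065 and 28028 in KO libraries, against 33091 and 33704 in floxed libraries. How far this difference between the libraries enters the results was not tested. Genes of the list that passed are given here where the median log2 fold change of their chromosome was past 0.3 either way. P4ha1 lies on chromosome 10 (-0.381), Bnip3l and Ero1l on chromosome 14 (-0.315) and Hif1a on chromosome 12 (0.688), with the sign of their chromosome. Hk1 on chromosome 10, Egln3 on chromosome 12 and Pkm on chromosome 9 (-0.458) went against it. Ndrg1 and Pfkm, which fell, lie on chromosome 15, just short of that limit at -0.296.

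Slc2a1, Hk2 and Aldoa rose in the Kindlin-2 KO, while Pfkm, Gpi1, Pgk1, Eno1, Eno2 and Ldhb fell. Slc2a1, the common glucose transporter, was 987 and 990 in KO libraries, against 580 and 549 in floxed libraries (0.81 ± 0.05, adjusted p = 0.00039). Hk2 was 1673 and 1620 in KO libraries, against 766 and 703 in floxed libraries (1.16 ± 0.06, adjusted p = 0.000213). Aldoa, the main aldolase gene, was 4946 and 5054 in KO libraries, against 2846 and 2911 in floxed libraries (0.80 ± 0.04, adjusted p = 0.000171). Each of these 3 passed whichever library was left out. Pfkfb3 rose 3.45-fold, to 273 and 358 in KO libraries, against 82 and 101 in floxed libraries (1.77 ± 0.18, adjusted p = 0.00137), and Slc16a1 was 2306 and 2071 in KO libraries, against 1179 and 1235 in floxed libraries (0.86, limma adjusted p = 0.000652). Pdk4 was 267 and 269 in KO libraries, against 203 and 185 in floxed libraries. With Pdk4, Hk1, Pgam1, Pkm, Pdk1 and Pfkp rose by less, to between 115.6% and 138.1% of floxed. On the other side, Pfkm was 454 and 444 in KO libraries, against 866 and 831 in floxed libraries (-0.92 ± 0.05, adjusted p = 0.000292). Eno2 was 57 and 43 in KO libraries, against 109 and 115 in floxed libraries (-1.16, limma adjusted p = 0.00517), and Ldhb was 1662 and 1660 in KO libraries, against 2171 and 2358 in floxed libraries (-0.45, limma adjusted p = 0.00239). Gpi1 and Pgk1 stood at 85.0% and 90.3% of floxed. The calls of Pgk1 and Pdk1 were lost with a replicate block (limma adjusted p = 0.101 and 0.0737). Gapdh, Tpi1, Pfkl, Ldha, Aldoc, Pfkfb4 and Slc16a3 did not pass, and Slc2a3 has no row in this table.

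Eno1 fell in the Kindlin-2 KO, to 2147 and 2101 in KO libraries, against 3636 and 3717 in floxed libraries (-0.79 ± 0.04, adjusted p = 0.000179). Its near-identical copy Eno1b was higher, at 195 and 239 in KO libraries, against 16 and 14 in floxed libraries. Since reads of such a pair can be assigned to either, the sum is the safer value: 2342 and 2340 in KO libraries, against 3652 and 3731 in floxed libraries. The sum was lower in KO libraries too, with no overlap. In MEFs the copy held 446 to 743 beside 2575 to 4030 for Eno1, and in ESCs 125 to 221 beside 2711 to 5861.

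Most of the other HIF targets were lower in Kindlin-2 KO libraries. Egln3 was 2 and 6 in KO libraries, against 118 and 107 in floxed libraries (adjusted p = 0.00124), close to the floor of the table in the KO. Ndrg1 was 773 and 807 in KO libraries, against 1623 and 1823 in floxed libraries (-1.12 ± 0.07, adjusted p = 0.000364). P4ha1 was 1396 and 1411 in KO libraries, against 2363 and 2417 in floxed libraries (-0.77 ± 0.04, adjusted p = 0.000205). P4ha2 rose, to 353 and 333 in KO libraries, against 216 and 248 in floxed libraries, so the subunit genes of the collagen prolyl hydroxylase changed in opposite directions. Ero1l was 427 and 460 in KO libraries, against 841 and 891 in floxed libraries (-0.96, limma adjusted p = 0.000443), and both mitophagy receptor genes fell. Bnip3 was 86 and 77 in KO libraries, against 147 and 182 in floxed libraries. Bnip3l was 1245 and 1164 in KO libraries, against 2139 and 2053 in floxed libraries. They stood at 49.5% and 57.5% of floxed. Egln1 was 667 and 648 in KO libraries, against 944 and 940 in floxed libraries, and Vegfa was 1260 and 1251 in KO libraries, against 1708 and 1804 in floxed libraries. Bhlhe40, Mxi1 and Kdm3a stood at 72.0%, 72.6% and 79.5% of floxed. Car9 was 5 in both KO libraries and was listed at 0 in both floxed libraries, at least 1.67-fold higher with 3 counts per library in place of 0. Ankrd37 and Higd1a did not pass, with overlapping libraries.

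**Figure D4:**
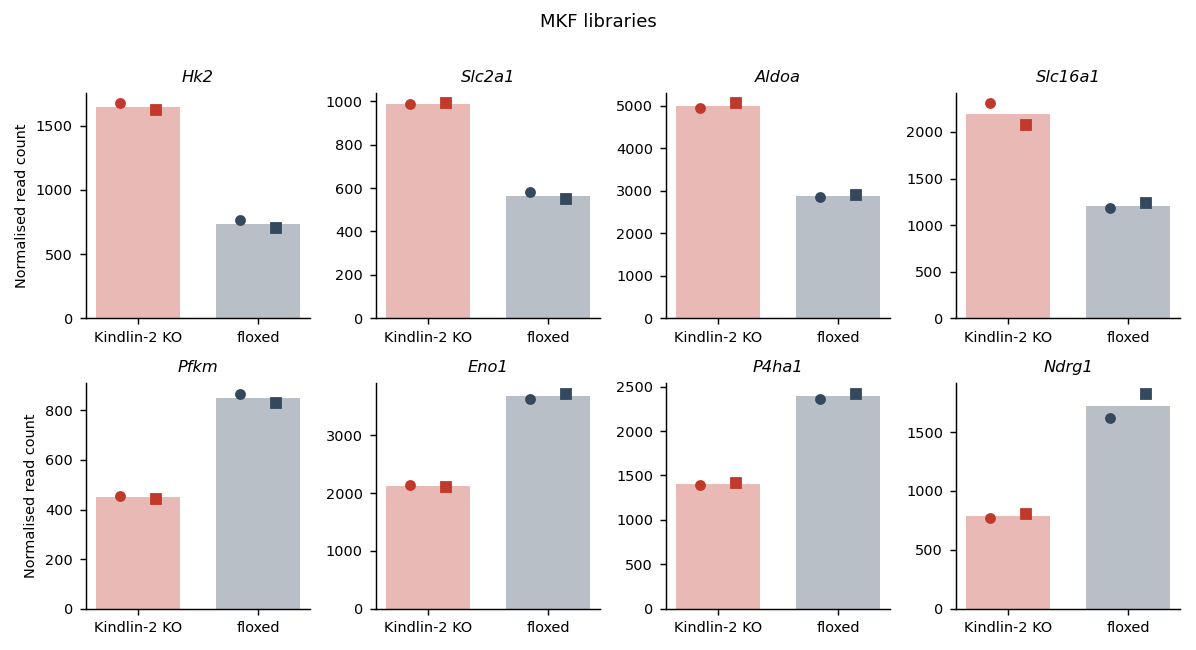
Normalised read counts of 8 genes in MKF libraries of the Kindlin-2 KO and of floxed cells. Circles are library 1, squares library 2 and bars the mean of both; each axis starts at 0. Hk2, Slc2a1, Aldoa and Slc16a1 are higher, and Pfkm, Eno1, P4ha1 and Ndrg1 lower, in KO libraries, with no overlap between groups.

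Neither HIF alpha subunit gene of the list, Hif1a or Epas1, passed as lower than its control in any of the 5 mutants. Hif1a was 3147 and 3394 in ESC Actb KO libraries and 2965 and 3278 in Actb LD libraries, against 3092 and 3491 in WT libraries, and the 3 groups overlapped (log2 fold change -0.01 ± 0.11 and -0.08 ± 0.11). In MEFs it was 6867 and 6724 in Actg1 KO libraries and 5684 and 6292 in Actg1 LD libraries, against 4800 and 5261 in WT libraries (0.44, limma adjusted p = 0.00209, and 0.25, limma adjusted p = 0.042). In MKFs it was 3377 and 3345 in KO libraries, against 2648 and 2791 in floxed libraries (0.31, limma adjusted p = 0.00379), less than the median of 0.688 of the genes of its chromosome 12. Hif1a thus rose in all 3 mutants outside ESCs and in neither mutant of the ESCs. Epas1 was 1219 and 1497 in ESC Actb KO libraries and 1394 and 1601 in Actb LD libraries, against 628 and 827 in WT libraries (0.91, limma adjusted p = 0.0202, and 1.05, limma adjusted p = 0.00587). In MEFs it was 37 and 37 in Actg1 KO libraries and listed at 0 in both Actg1 LD libraries, against 9 and 1 in WT libraries, and in MKFs it was at most 11 in every library. Only the Actg1 KO passed against WT among these (limma adjusted p = 0.0122), but the Actg1 LD, at -2.16, also passed when genes with a mean under 10 were left out (limma adjusted p = 0.0307).

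Levels of different genes can be compared within a library once divided by exon length. On that scale (normalised read counts per kilobase), Pkm ranked first or second of the listed genes in every group and Aldoa first in the ESC mutants. Slc2a3 made up 65.7% to 70.7% of the 2 glucose transporters in ESC libraries and at most 0.601% in MEF libraries. Hexokinase was mainly Hk2 in ESCs, and the share of Hk2 was above its control in every mutant. It was 90.0% ± 1.00 in ESC Actb KO libraries and 86.9% ± 0.0231 in Actb LD libraries, against 83.0% ± 0.473 in WT libraries (mean ± SD, n = 2). In MEFs it was 54.0% ± 0.824 in Actg1 KO libraries and 45.9% ± 0.599 in Actg1 LD libraries, against 37.2% ± 1.04 in WT libraries. In MKFs it was 52.9% ± 1.16 in KO libraries, against 36.6% ± 1.79 in floxed libraries. With 2 libraries a group no exact test of a share can reach 0.05, and no p is given.

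The shares of the other families depended on the cell type. Ldhb made up 21.9% ± 3.61 of the lactate dehydrogenase genes in ESC Actb KO libraries and 58.6% ± 2.66 in Actb LD libraries, against 25.0% ± 6.37 in WT libraries, so only the LD libraries lay apart. In MKFs it was 53.4% ± 0.457 in KO libraries, against 64.0% ± 0.236 in floxed libraries. Pfkp made up 11.4% ± 0.197 of the phosphofructokinase genes in MEF Actg1 KO libraries and 0.875% ± 0.0369 in Actg1 LD libraries, against 2.34% ± 0.131 in WT libraries. In the MKF Kindlin-2 KO the share of Pfkm was 25.0% ± 0.0235 in KO libraries, against 41.9% ± 1.83 in floxed libraries. Per kilobase Pfkl took up most of the difference. Not divided by length, Pfkp took up more of it, at 33.5% in KO libraries, against 26.3% in floxed libraries. Pfkl was then 54.5% in KO libraries, against 50.7% in floxed libraries. Genes differ in which of their exons are used, so shares depend on the length taken for each. Not divided by length, Ldhb made up 40.2% in ESC Actb LD libraries, 35.2% in MKF KO libraries and 45.7% in floxed libraries. On that scale Ldha was the larger share in these 3 groups.

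**Figure D5:**
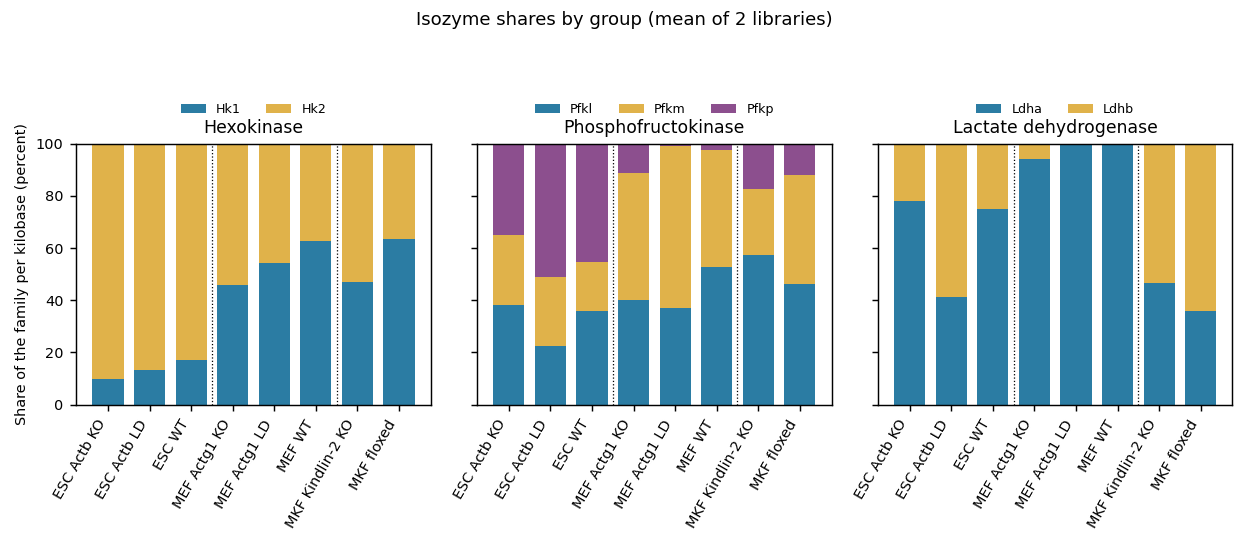
Share of each isozyme gene, per kilobase and in percent of its family, for hexokinase, phosphofructokinase and lactate dehydrogenase. Bars are means of 2 libraries in each of the 8 groups, and dotted lines part the cell types. The Hk2 share is higher in every mutant than in its control, and Pfkp grows in the MEF Actg1 KO. Ldhb is the larger share in the ESC Actb LD and in MKFs per kilobase, but not without division by length.

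Neighbouring pathways were read from further lists. Of other glycolytic genes not on the main list, 2 of 26 fell and 1 rose in the ESC Actb KO, and 2 fell and 1 rose in the Actb LD, and of further HIF targets 4 of 34 fell and 1 rose in the KO and 8 fell and 1 rose in the LD, beside the 2.44% and 6.00% of all genes that fell. Stc2, a secreted glycoprotein gene, was 34 and 35 in ESC Actb KO libraries and 59 and 63 in Actb LD libraries, against 202 and 177 in WT libraries (-2.42, limma adjusted p = 0.000565, and -1.62, limma adjusted p = 0.00185). Loxl2, a lysyl oxidase relative that cross-links collagen, was 6 and 4 in KO libraries and 5 and 4 in LD libraries, against 40 and 52 in WT libraries. Loxl2 was also far lower in the MKF KO, at 120 and 122 in KO libraries, against 3860 and 3985 in floxed libraries (-5.01 ± 0.05, adjusted p = 1.84e-05). Hif3a, a further HIF alpha gene, fell in the Actb LD, at 43 and 43 in LD libraries, against 133 and 98 in WT libraries (-1.39, limma adjusted p = 0.00862). Of 17 genes of the citric acid cycle 1 fell in each Actb mutant and none rose, and of 8 genes of the pentose phosphate pathway none changed in the KO and 1 fell in the LD.

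In MEFs, 13 of 35 further HIF targets rose and 6 fell in the Actg1 KO, and 7 rose and 7 fell in the Actg1 LD, beside 20.6% of all genes higher and 19.1% lower in the KO and 9.46% and 12.6% in the LD. Of the 17 citric acid cycle genes 3 rose and 4 fell in the KO, and 4 rose and 2 fell in the LD. These are 17.6% and 23.5% in the KO, and 23.5% and 11.8% in the LD. The share that rose in the LD was thus above that of all genes, and the other shares were near it. Slc16a7, a further monocarboxylate transporter, was 590 and 610 in MEF Actg1 KO libraries, against 219 and 208 in WT libraries (1.49 ± 0.09, adjusted p = 1.79e-05). The muscle enolase gene Eno3 was 194 and 250 in Actg1 KO libraries and 1154 and 1134 in Actg1 LD libraries, against 773 and 823 in WT libraries, so it fell in the KO and rose in the LD (limma adjusted p = 2.15e-05 and 0.0179). Arnt2, which makes a partner of the HIF alpha subunits, was 284 and 261 in Actg1 KO libraries, against 33 and 28 in WT libraries (3.12 ± 0.21, adjusted p = 2.8e-05). In the MKF KO Arnt2 was 287 and 302 in KO libraries, against 621 and 605 in floxed libraries (-1.06, limma adjusted p = 0.00029), and Arnt, the common partner, was 1180 and 1191 in KO libraries, against 1800 and 1865 in floxed libraries (-0.63, limma adjusted p = 0.000432). There 14 of 30 further HIF targets fell and 10 rose, and 6 of 13 genes that regulate HIF fell and 2 rose. Of 28 other glycolytic genes not on the main list, 10 fell and 4 rose in the MKF KO. Beside these counts, 24.9% of all genes were lower and 24.3% higher. Of 8 pentose phosphate genes 5 were higher and 2 lower in the MKF KO. Tkt, transketolase, was 4249 and 4470 in KO libraries, against 2084 and 2210 in floxed libraries (1.02 ± 0.05, adjusted p = 0.00019), while H6pd, the pathway's first enzyme in the endoplasmic reticulum, was 141 and 133 in KO libraries, against 957 and 977 in floxed libraries (-2.81 ± 0.06, adjusted p = 4.88e-05).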

How the data were processed

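RNA was extracted with a miRNeasy micro kit, with DNase on the column, and libraries were made with the SMARTer stranded total RNA kit, per the labels' protocols. The submitters' processing notes name STAR 2.5.3a, featureCounts 1.6.0, DESeq2 1.14.1 and the mouse build GRCm38 (mm10). The deposited value of each gene is a score here: a normalised read count that the authors rounded to whole numbers, on a scale set within each table, so levels are compared only within a table. Depth before normalisation is not given in the sources used here. All groups of a table entered 1 limma fit (version 3.58.1, R 4.3.3) on log2(value + 1), with genes of mean at least 1 and Benjamini-Hochberg adjustment over all genes, two-sided. The fit was tested on simulated data. Replicate numbers come from the labels. In ESCs, same-numbered libraries deviated together (correlations of 0.349, 0.492 and 0.678 across 11369 genes), so a replicate block was run there as pairing. Near copies were found with blastn 2.17.0 (at least 95% identity over 300 bases). In each comparison up to 10 glycolytic and 10 other passing genes with the largest fold changes are given by library, with Hif1a and Epas1, and up to 3 genes per direction of each further list. The genes and lists were chosen with earlier results of these data known. Alternatives were another pseudocount, other filters, rescaling, a replicate block, fits of 2 groups, and leaving out each library.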

Additional observations from a re-analysis of the deposited data

Results flagged for a closer look

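In MEFs, 8 genes of the list lay on opposite sides of WT in the 2 Actg1 mutants, with both KO libraries on one side of both WT libraries and both LD libraries on the other. The share of all genes that did so was not determined, so the count is no trait of the list. Between these mutants 24.5% of all genes were higher and 20.7% lower in the KO. The log2 differences, KO minus LD, were 7.71 for Ldhb, 5.25 for Epas1, 3.82 for Pfkp, 1.27 for P4ha2, 0.70 for P4ha1, 0.21 for Ero1l, -0.53 for Ldha and -0.77 for Gapdh, each past an adjusted p of 0.05 by limma. The difference of Ero1l did not pass with a replicate block (adjusted p = 0.0601) or with only these 2 groups in the fit (0.0983). Ldhb and Epas1 were listed at 0 in LD libraries, so their differences depend on the added 1, and Epas1 was at most 37 in any MEF library.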

How the results depend on the processing

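Counts of listed genes that passed kept within 1.5 times of their value, in all 7 comparisons, under a pseudocount of 5, no filter, a mean of at least 10, and rescaling without genes over 1% of a library. With only the 2 groups compared, 9 genes passed in the ESC Actb KO against WT (17 with all groups), 14 in the LD against WT (25) and 1 in KO against LD (6), with fewer libraries to estimate the spread; the MKF table holds 2 groups only. With 1 library left out the counts were 0 to 1, 1 to 7 and 0 to 0 in these ESC comparisons, 17 to 21 (of 30), 8 to 16 (of 19) and 13 to 24 (of 30) in the MEF Actg1 KO and LD against WT and KO against LD, and 10 to 16 (of 31) in MKFs, taking a single remaining library to have the spread of the other groups. A replicate block gave 25, 30 and 13 in ESCs, 29, 19 and 28 in MEFs and 29 in MKFs. Across the list it added 20 calls in ESCs, and it ended those of Egln1 in the MEF KO against WT, Aldoa and Ero1l in the MEF KO against LD, and Pdk1 and Pgk1 in MKFs. In MEFs same-numbered libraries of KO and WT, and of LD and WT, deviated in opposite directions (-0.302 and -0.211); pairing them crosswise, chosen after seeing the data, gave 31 and 20. The MKF numbers showed no pairing (-0.0952). Without division by length, 92 isozyme shares moved by at least the SD of their group, and 28 by less. Signs turned with 1 library left out for HIF alpha genes that did not pass: the log2 fold change of Hif1a ran from -0.0951 to 0.0799 in the ESC KO against WT, from -0.163 to 0.0119 in the LD against WT and from -0.0043 to 0.140 in KO against LD, and that of Epas1 from -0.293 to 0.003 in ESC KO against LD and from -0.778 to 0.222 in MKFs. The cause of these changes was not tested. Depth before normalisation is not given in the sources used here.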
